A study of Mus musculus with 30 samples.

Results

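The airway lining was followed through 8 genes, found by symbol in the lung and spleen tables of a mouse study of lincRNA-Cox2. They are Scgb1a1, Scgb3a1, Scgb3a2, Muc5b, Bpifa1 and Reg3g of secretory cells, and Foxj1 and Dynlrb2 of ciliated cells. All 8 genes had 1 entry each among 19470 entries of the lung table and among 18845 entries of the spleen table. The mice were C57BL/6 and 8 weeks old, and were wild type or belonged to 1 of 2 lines labelled lincRNA-Cox2 mutant and lincRNA-Cox2 knockout. The long noncoding RNA lincRNA-Cox2 is transcribed beside Ptgs2 (cyclooxygenase 2), and the labels do not describe the alleles of either line. In each tissue every genotype had 3 libraries from mice given lipopolysaccharide (LPS, the bacterial cell wall component sensed by Toll-like receptor 4) at 20 mg/kg into the peritoneum and sampled after 6 h, and 2 libraries labelled PBS, 30 libraries in all.

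Bronchi and bronchioles are lined by secretory cells, which release secretoglobins, mucins and antimicrobial proteins, and by ciliated cells, whose beating cilia carry that fluid and mucus out of the lung. Club cells, the main secretory cells of mouse bronchioles, are defined by Scgb1a1. Ciliated cells are defined by Foxj1, the transcription factor that switches on the genes of the motile cilium. LPS given into the peritoneum reaches the lung through the blood and not through the airway surface.

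The tables hold the authors' means over the libraries of a group and no value of a single library. The spread between replicates is therefore unknown, and levels are printed without an SD. The labels do not say that libraries of a group came from separate mice. Levels are normalized counts (reads scaled by the depth of the library), and the members' means are given to 3 significant digits in the deposited table. Genotypes were compared as the authors' deposited table does, by log2 fold change with an adjusted p. LPS was compared with PBS as the ratio of 2 group means, which has no test. Whole lungs were sequenced, so fewer airway cells in a sample and less RNA per airway cell cannot be told apart.

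The size of 1 read could be recovered from the lowest group means, which put library totals at about 5.20 to 17.3 M reads in lung and 2.38 to 8.95 M in 5 of the 6 groups of spleen. LincRNA-Cox2 itself was at 34.8 and 30.2 in wild type lung under PBS and LPS and at 0 in the 4 lung groups of both lines. In spleen it was at 2.13 and 3.53 in wild type, and at 0 in both lines except the knockout LPS group with 0.322, the size of 1 read. All 8 genes of the LPS response list, among them Il1b and Ifit1, were at least 2-fold higher with LPS in every genotype and both tissues. Sex-linked transcripts differed between the groups. In lung Xist, expressed in females, was at 3660, 3300 and 1910 in wild type, mutant and knockout mice under PBS and at 14.5, 4510 and 23.2 under LPS. The Y-linked gene Ddx3y was at 294.0, 317.0 and 447.0 under PBS and at 1150, 4.73 and 1130 under LPS. LPS and this difference cannot be told apart in a comparison of LPS with PBS groups. Genotype and this difference cannot be told apart either where the mutant LPS lungs are compared with the other LPS lungs.

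The start regions of 4 of the 8 genes were found in the RefSeq table of promoters for GRCm38.p6, the assembly that mm10 stands for; Scgb1a1, Scgb3a2, Foxj1 and Muc5b were not in it. The 4 regions are shown because they were the ones found. The behaviours of their genes are described next: Bpifa1 was lower with LPS, Reg3g was higher, Scgb3a1 went with the secretoglobins and Dynlrb2 belongs to the cilium. Each is given 5′ to 3′ on the strand of the gene, ending at or near the start of transcription, with letters that match one of 7 motifs in capitals. The motifs were chosen after the sequences had been read. They were searched on both strands as TGTTTNC and TNTTTAC (forkhead factors), TTCNNNGAA (STAT factors), TTGCNNAA (C/EBP factors), TATAAA (the TATA box), and by name alone the X-box of RFX factors and the NF-kB motif.
Bpifa1, chr2:154142630-154142879, plus strand: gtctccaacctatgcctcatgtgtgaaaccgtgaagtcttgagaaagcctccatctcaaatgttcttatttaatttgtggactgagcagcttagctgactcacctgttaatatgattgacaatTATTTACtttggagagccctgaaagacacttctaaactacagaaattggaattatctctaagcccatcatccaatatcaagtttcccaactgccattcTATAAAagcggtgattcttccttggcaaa
Reg3g, chr6:78468875-78469124, minus strand: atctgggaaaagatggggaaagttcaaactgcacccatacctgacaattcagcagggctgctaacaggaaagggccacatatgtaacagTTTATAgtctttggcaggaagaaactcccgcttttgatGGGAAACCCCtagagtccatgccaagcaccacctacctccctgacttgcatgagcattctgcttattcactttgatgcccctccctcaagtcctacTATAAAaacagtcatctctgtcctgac
Scgb3a1, chr11:49663345-49663594, plus strand: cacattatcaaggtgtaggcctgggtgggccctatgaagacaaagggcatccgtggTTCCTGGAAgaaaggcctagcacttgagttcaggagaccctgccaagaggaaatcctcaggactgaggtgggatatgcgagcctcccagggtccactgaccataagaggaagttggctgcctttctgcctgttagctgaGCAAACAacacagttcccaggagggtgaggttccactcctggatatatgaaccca
Dynlrb2, chr8:116504765-116505003, plus strand: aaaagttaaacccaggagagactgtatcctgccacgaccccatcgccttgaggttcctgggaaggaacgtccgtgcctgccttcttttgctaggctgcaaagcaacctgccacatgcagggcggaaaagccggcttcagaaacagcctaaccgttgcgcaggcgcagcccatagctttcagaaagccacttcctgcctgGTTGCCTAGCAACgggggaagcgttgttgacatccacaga

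The Dynlrb2 region holds an X-box match, GTTGCCTAGCAAC, 51 to 39 bases before the RefSeq start, a motif found in 1.53% of 32851 such windows. RFX factors bind the X-box and are known regulators of cilium genes. The Reg3g region holds an NF-kB match, GGGAAACCCC, 123 to 114 bases before the start, and 8.46% of windows hold one. It has TATAAA 27 to 22 bases before the start and once more on the other strand. The Bpifa1 region has TATAAA 29 to 24 bases before the start and the forkhead form TATTTAC 127 to 121 bases before it; TATAAA is in 13.6% and TNTTTAC in 12.4% of windows. The Scgb3a1 region holds GCAAACA, the forkhead form TGTTTNC read on the other strand, and TTCCTGGAA, with shares of 20.5% and 8.30% of windows. No TTGCNNAA was found in the 4 regions, against 10.8% of all windows. The windows counted run from 250 bases before to 50 after each start, and a match is a description of letters, not evidence that a factor binds.

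The 8 genes spanned a wide range of levels in lung. Divided by exonic length, the mean over all 15 lung libraries was 53782 normalized counts per kilobase for Scgb1a1, 3515 for Scgb3a2, 1462 for Scgb3a1 and 1374 for Bpifa1. It was 609.1 for Dynlrb2, 503.2 for Reg3g, 193.7 for Foxj1 and 63.0 for Muc5b, so the secretoglobins stood first and the long mucin gene last. Without replicate values it cannot be said whether the neighbours Scgb3a1 and Bpifa1, or Dynlrb2 and Reg3g, differ beyond their spread. By mean count Scgb1a1 ranked 11 of 19470 entries in lung and 991 of 18845 in spleen. The highest of the 6 lung group means was 1.39 times the lowest for Foxj1, 1.46 times for Dynlrb2 and 1.49 times for Scgb3a2. That ratio was 4.14 for Reg3g and 8.59 for Bpifa1, the widest of the 8 genes.

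**Figure D1:**
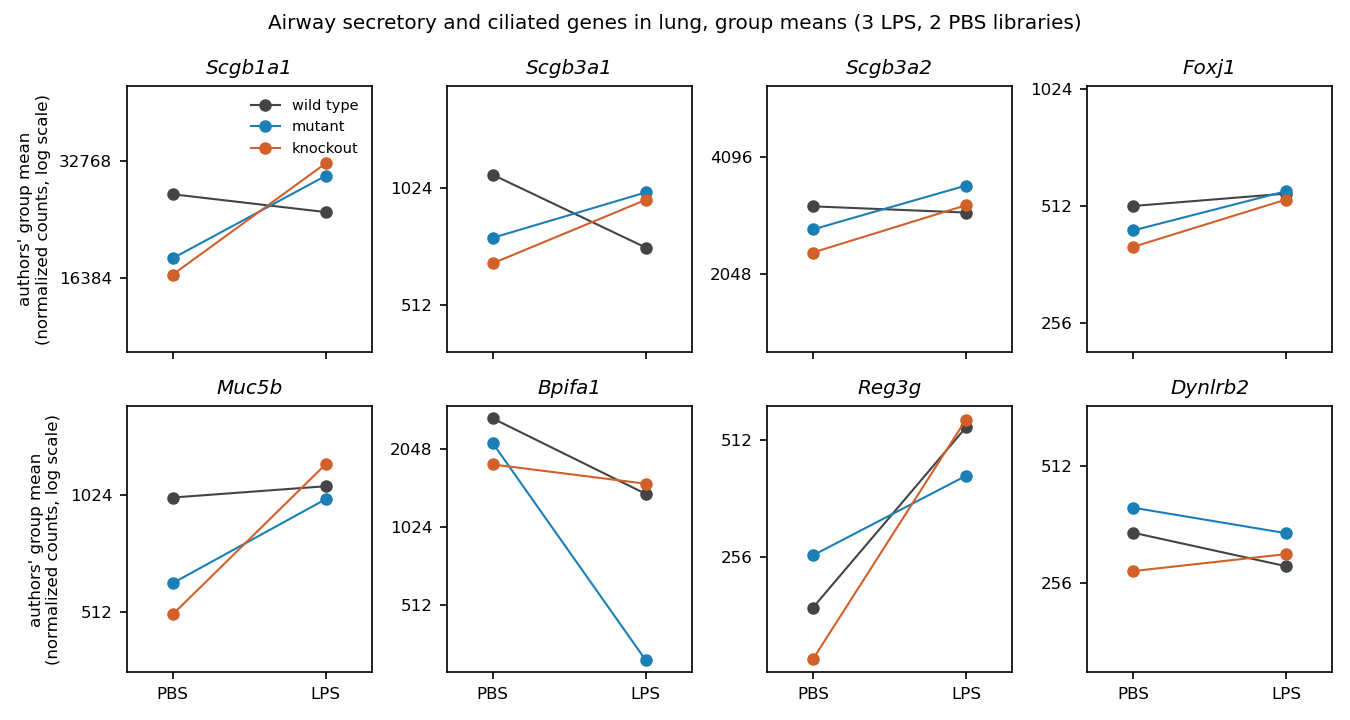
Authors' mean normalized counts of the 8 genes in lung (vertical axes, log scale, 1 panel per gene) under PBS (2 libraries) and LPS (3 libraries), with lines joining the group means of wild type (grey), mutant (blue) and knockout (orange) mice; the points carry no error. Bpifa1 in the mutant LPS group, at 312.0, lies apart from the other 5 groups, and Reg3g is higher with LPS in each genotype.

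No member was called different between genotypes in lung. In the authors' deposited table all 48 member comparisons (8 genes, 3 pairs of genotypes, 2 treatments) had an adjusted p above 0.05. The smallest adjusted p was 0.507, for Scgb1a1 in knockout over wild type under LPS, with a log2 fold of 0.41. Calls were rare over the whole lung table too. For LPS the authors' deposited table called 0.0715% of tested genes for mutant over wild type, 0.441% for knockout over wild type and 0.243% for knockout over mutant at an adjusted p under 0.05. Under PBS the authors' deposited table called 0.00524%, 0.0421% and 0.0523% for the same pairs. Counts at an unadjusted p were not available to set beside these, so a share of 0 in 8 genes is near the background and says little about them.

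Under PBS the members of both lines were mostly below wild type, although none was called. In the authors' deposited table the log2 fold of knockout over wild type lung was below 0 for 8 of 8 genes, with a median of -0.35 against 0.01 over all tested genes. For mutant over wild type it was below 0 for 6 of 8, with a median of -0.19 against 0.00 over all genes in the authors' deposited table. These 2 comparisons share the 2 wild type PBS libraries, and every adjusted p was 1.00. The largest of these differences was Muc5b, with means of 1010 in wild type, 608.0 in mutant and 505.0 in knockout mice and a log2 fold of -0.92 for knockout over wild type in the authors' deposited table. The surfactant and other alveolar type 2 genes lay the same way: 10 of 10 were below 0 for both lines over wild type under PBS in the authors' deposited table, with medians of -0.33 and -0.40. The share of all genes below 0 was not counted. For knockout over wild type under PBS, the median log2 fold in the authors' deposited table differed by exonic length. It was -0.38 over genes under 600 bases, a class that holds Scgb1a1, Dynlrb2 and Scgb3a1. Over those of 600 to 1000 bases, which hold Scgb3a2 and Reg3g, it was -0.23. It was 0.07 over genes of at least 4000 bases, such as Muc5b. The part of transcript length in the members' folds was not tested.

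Scgb1a1 (chr19:9083636-9087958 of mm10, minus strand, 3 exons) encodes the club cell secretory protein, one of the most abundant proteins of airway lining fluid. Its lung means under PBS were 26900 in wild type, 18400 in mutant and 16700 in knockout mice. Under LPS they were 24200, 30000 and 32300. Both lines were thus below wild type under PBS and above it under LPS, and the lowest and highest of the 6 groups were the 2 knockout groups. The log2 ratio of LPS to PBS was -0.15 in wild type, 0.71 in mutant and 0.95 in knockout mice. The counting error alone is small here, with about 48768 to 81143 reads behind each mean, and the spread between mice is not known. Whether the ratios differ between genotypes was not tested, since single libraries are needed for that.

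The length of the transcript moved with this pattern. Over all lung genes with fewer than 600 exonic bases, the class that holds Scgb1a1 with 476, Dynlrb2 with 527 and Scgb3a1 with 598, the median log2 ratio of LPS to PBS was -0.02 in wild type (114 genes), 0.35 in mutant (114 genes) and 0.89 in knockout mice (120 genes). Over genes of at least 4000 bases it was -0.02, -0.10 and -0.15. Short genes as a class thus ran from PBS to LPS in the same order of genotypes as Scgb1a1. Less the median of its length class, the log2 ratio of Scgb1a1 was -0.14, 0.35 and 0.06. Taken from the authors' deposited table, the median log2 fold of that class for knockout over wild type was -0.38 under PBS and 0.40 under LPS, where Scgb1a1 had -0.67 and 0.41. The part of transcript length in the Scgb1a1 values was not tested. The length classes were looked at after the values had been seen.

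The 4 genes whose lung pattern lay nearest to Scgb1a1, by the root mean square distance of centred log2 means over the 6 lung groups among 11857 genes with a mean of at least 50, were Rps14 (0.0585), Fam203a (0.0711), Rpl9 (0.0809) and Ftl1 (0.0842). Rps14 and Rpl9 encode ribosomal proteins and Ftl1 the ferritin light chain. Rps14 was at 2360, 1800 and 1630 under PBS and at 2230, 2700 and 2940 under LPS in wild type, mutant and knockout mice. None of these 4 genes is a marker of secretory cells.

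**Figure D2:**
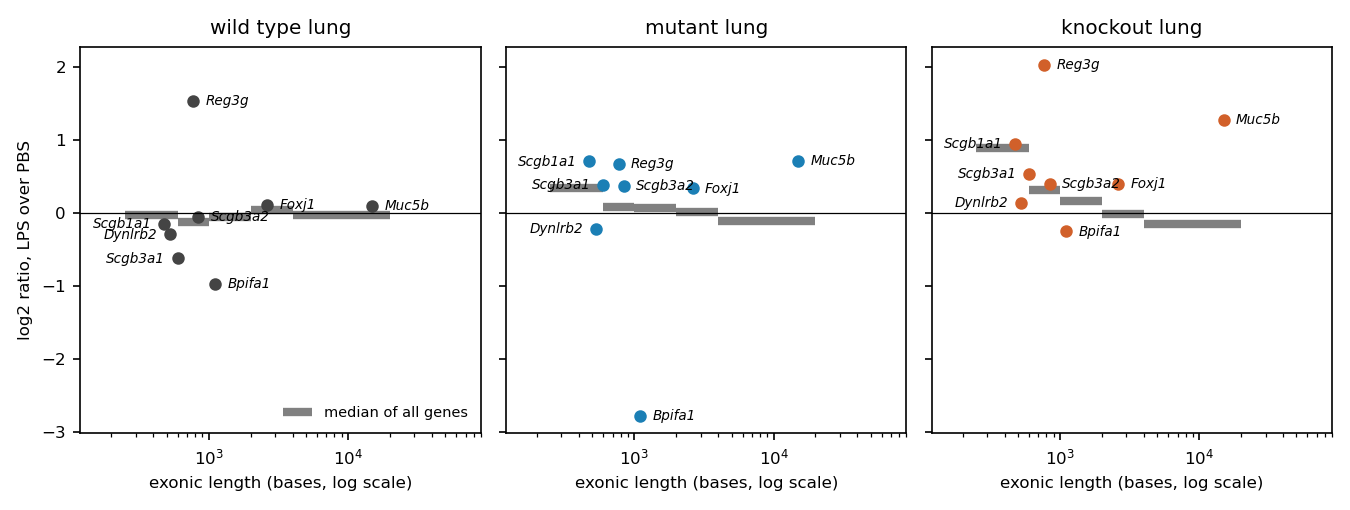
Log2 ratio of the LPS to the PBS group mean in lung (vertical axis, pseudocount 1) against exonic length (horizontal axis, log scale) for the 8 genes (points) in each genotype; grey bars are the medians of all genes in a length class with a mean of at least 10. The bar of the shortest class lies at -0.02 in wild type, 0.35 in mutant and 0.89 in knockout mice, and the Scgb1a1 point lies near the bar in wild type and knockout mice.

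Scgb3a1 (chr11:49663610-49665118, plus strand, 4 exons) and Scgb3a2 encode other secretoglobins of the conducting airways. Scgb3a1 was at 1110, 764.0 and 657.0 under PBS and at 721.0, 1000 and 957.0 under LPS in wild type, mutant and knockout lungs. Wild type mice thus had the highest mean of the 3 genotypes under PBS and the lowest under LPS, as for Scgb1a1. Scgb3a2 was at 3050, 2660 and 2320 under PBS and at 2940, 3450 and 3070 under LPS. The log2 ratios of LPS to PBS were -0.62, 0.39 and 0.54 for Scgb3a1 and -0.05, 0.38 and 0.40 for Scgb3a2. Less the median of genes of like length they were -0.61, 0.03 and -0.35 for Scgb3a1 and 0.07, 0.29 and 0.09 for Scgb3a2. The lower Scgb3a1 mean of wild type mice under LPS is therefore as large against genes of its own length, and the higher means of both lines are not.

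Other club cell genes were on balance slightly lower with LPS. Of 20 listed genes, 19 had a lung mean of at least 10. Their median log2 ratio of LPS to PBS was -0.18 in wild type, -0.15 in mutant and -0.25 in knockout mice. Over all genes it was -0.03, -0.03 and -0.01. Log2 ratios below 0 were found for 13, 11 and 12 of the 19, and the share of all genes below 0 was not counted. Cyp2f2, a cytochrome P450 that defines club cells beside Scgb1a1, was at 16500, 14000 and 13900 under PBS and at 12600, 12400 and 8510 under LPS. In knockout mice its mean was thus lower with LPS while that of Scgb1a1 was higher, and the ratio of Scgb1a1 to Cyp2f2 went from 1.20 to 3.80. In wild type mice that ratio was 1.63 and 1.92, and in mutant mice 1.31 and 2.42. Less the median of its length class, the log2 ratio of Scgb1a1 in knockout mice was 0.06, against 0.95 before. The part of transcript length in the ratio of Scgb1a1 to Cyp2f2 was not tested. Cbr2, a carbonyl reductase, had log2 ratios of LPS to PBS of -0.60, -0.04 and -0.28, and Sec14l3, a lipid transfer protein, of -0.75, -0.38 and -0.93. At least 2-fold higher with LPS in each genotype were Hp (haptoglobin), Pigr (the receptor that carries IgA into the airway fluid) and Retnla. At least 2-fold lower were Cyp2a5 in wild type (log2 ratio -1.15), Fmo2 in mutant (-1.45), and Fmo2 and Aox3 in knockout mice (-1.76 and -1.39). All of these except Hp are named after their values were seen. Over all genes 13.9%, 15.5% and 16.9% were higher and 14.3%, 16.0% and 17.7% lower. Hp was at 6170, 4470 and 3560 under PBS and at 19500, 20600 and 22100 under LPS. Wfdc2, a secreted protein also named after its values were seen, was at 3730, 2980 and 2500 under PBS and at 3070, 3820 and 3360 under LPS, with log2 ratios of -0.28, 0.36 and 0.43. None of the 20 genes was called between genotypes in lung in the authors' deposited table.

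Muc5b (chr7:141839070-141873084, plus strand, 49 exons) encodes the gel-forming mucin that mucociliary clearance of the mouse lung depends on. Its lung means were 1010, 608.0 and 505.0 under PBS and 1080, 1000 and 1230 under LPS in wild type, mutant and knockout mice. The 3 LPS means lay close together, and the genotypes stood apart under PBS. The log2 ratio of LPS to PBS was 0.10, 0.72 and 1.28, and in knockout mice the 2.44-fold difference was past 2-fold. Muc5b has 14964 exonic bases, and less the median of genes of like length the ratios were 0.11, 0.81 and 1.44. The highest mean under LPS, that of knockout mice, had a log2 fold of 0.18 over wild type in the authors' deposited table, with an adjusted p of 0.925.

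The other mucin, goblet cell and gland genes had median log2 ratios of LPS to PBS above 0. Of 22 listed genes 13 or 14 had a lung mean of at least 10, and the median log2 ratio was 0.21 in wild type, 0.66 in mutant and 0.90 in knockout mice. At least 2-fold higher were 5, 4 and 6 of them, and at least 2-fold lower 2, 0 and 0. Over all genes 13.9%, 15.5% and 16.9% were higher and 14.3%, 16.0% and 17.7% lower. Spdef, named after its values were seen, passed the minimum mean in both lines only through the LPS group. Low genes can pass in this way, so the counts are no evidence of a direction. Muc4, a membrane mucin, was at 406.0, 273.0 and 299.0 under PBS and at 1040, 1260 and 1430 under LPS. Muc1, another membrane mucin, had log2 ratios of 0.34, 0.66 and 0.40. Ltf (lactoferrin) was at 398.0, 437.0 and 322.0 under PBS and at 1380, 1680 and 1780 under LPS; neutrophils make it as well, and the summed neutrophil list went from 3357 to 4116 under PBS to 52053 to 65513 under LPS. The part of neutrophil RNA in the Ltf values was not tested.

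Bpifa1 (chr2:154142880-154149219, plus strand, 9 exons) encodes an abundant secreted protein of the large airways and nose that lowers surface tension and acts on bacteria. Its lung means under PBS were 2680, 2150 and 1780 in wild type, mutant and knockout mice. Under LPS they were 1370, 312.0 and 1500. The 3 LPS means were all below the 3 PBS means, and the mutant LPS group was 4.39 times below the next lowest. Against PBS the level with LPS was 0.511-fold in wild type (log2 ratio -0.97), 0.145-fold in mutant (-2.78) and 0.843-fold in knockout mice (-0.25). The counting interval of the mutant log2 ratio was -2.89 to -2.68, which covers counting error only. Under LPS the log2 fold in the authors' deposited table was -1.04 for mutant over wild type with an adjusted p of 0.972, and 1.12 for knockout over mutant with an adjusted p of 0.792. The fold of the authors' deposited table for mutant over wild type is nearer to 0 than the log2 ratio of the 2 means, -2.13. The difference did not pass the test between genotypes, in spite of its size.

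Several markers stood beside the low Bpifa1 mean. The mutant LPS group was the group with high Xist (4510) and almost no Ddx3y (4.73), whereas the wild type and knockout LPS groups were the reverse. The sum of 6 basal cell markers, found in large airways, was 30.6, 60.4 and 47.3 under PBS and 15.6, 10.8 and 17.3 under LPS. In wild type, mutant and knockout mice 1, 2 and 2 of the 6 had a mean of at least 10. Krt15 was at 11.0, 32.3 and 12.8 under PBS and at 1.96, 0.986 and 0.665 under LPS. Ngfr, named after its values were seen, was nearly level, at 5.12, 3.20 and 6.52 and at 4.30, 3.63 and 6.52. Krt5, which defines basal cells and is named after its values were seen, was at 1.76, 11.8 and 6.24 under PBS. Under LPS it was at 0.653, 0 and 0. The cartilage gene Chad was at 262.0, 269.0 and 278.0 under PBS and at 119.0, 166.0 and 113.0 under LPS, so that its mutant LPS mean was the highest of the 3. Of 9 cartilage genes in the table, 2 had a lung mean of at least 10. The other, Col11a2, was at 28.6, 23.3 and 19.9 under PBS and at 30.6, 25.6 and 42.3 under LPS. The list's sum was 295.2, 296.3 and 306.5 under PBS and 158.9, 201.2 and 167.2 under LPS. Bpifb1, a related secreted protein encoded near Bpifa1, was at 817.0, 675.0 and 546.0 under PBS and at 696.0, 665.0 and 1020 under LPS. Its mutant LPS mean was the lowest of the 3 LPS means too, but it was close to its mutant PBS mean. The part of these markers in the Bpifa1 values was not tested.

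The genes with the nearest pattern to Bpifa1 were farther away than for Scgb1a1: Adipoq at a distance of 0.432, Wisp2 at 0.454, Zfp521 at 0.468 and Cfd at 0.469. Adipoq and Cfd encode adiponectin and adipsin, which fat cells secrete. Adipoq was at 72.6, 105.0 and 93.8 under PBS and at 52.1, 21.3 and 80.4 under LPS, with its lowest mean in the mutant LPS group too. Cfd was at 283.0, 124.0 and 333.0 under LPS.

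Reg3g (chr6:78466269-78468872, minus strand, 6 exons) encodes a secreted lectin that kills Gram-positive bacteria and is induced at epithelial surfaces during infection. Its lung means were 190.0, 259.0 and 140.0 under PBS and 553.0, 415.0 and 579.0 under LPS in wild type, mutant and knockout mice. All 3 LPS means were above all 3 PBS means. The difference was 2.91-fold in wild type (log2 ratio 1.54), 1.60-fold in mutant (0.68) and 4.14-fold in knockout mice (2.04). The mutant line had the highest PBS mean, the lowest LPS mean and so the smallest ratio. No pair of genotypes was called in the authors' deposited table. Under LPS its log2 fold of mutant over wild type was -0.32 with an adjusted p of 0.989. The related Reg3b, picked after its values were seen, was near the limit of detection in lung, between 0 and 2.32 in the 6 groups.

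Secreted defence genes that are known to be induced in inflamed lung epithelium had a larger median ratio than Reg3g, though not each of them. Lcn2 (lipocalin 2, which binds bacterial siderophores) was at 1190, 806.0 and 725.0 under PBS and at 29500, 35300 and 38600 under LPS. Over the 15 of 18 listed defence genes with a lung mean of at least 10, the median log2 ratio was 3.27 in wild type, 3.90 in mutant and 3.77 in knockout mice, and 13, 12 and 12 were at least 2-fold higher, beside 13.9%, 15.5% and 16.9% over all genes. C3, a complement protein, had log2 ratios of 1.01, 1.10 and 1.19 and is named after its values were seen. Lcn2, S100a8 and S100a9 also stand in the neutrophil list, and the part of neutrophils in these values was not tested. Lyz2, a lysozyme of myeloid and alveolar cells, had log2 ratios of -0.06, 0.46 and 0.73.

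**Figure D3:**
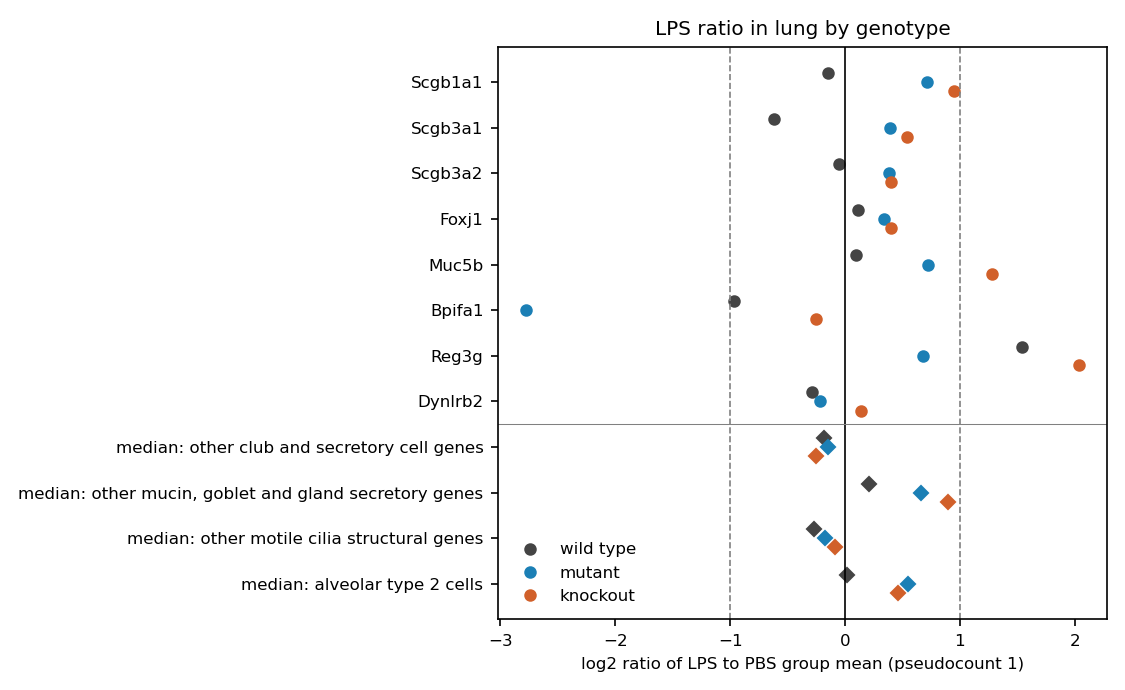
Log2 ratio of the LPS to the PBS group mean in lung (horizontal axis, pseudocount 1) for the 8 genes (circles) and the median of 4 lists of other genes (diamonds) in wild type (grey), mutant (blue) and knockout (orange) mice; dashed lines mark 2-fold. Reg3g in wild type and knockout mice and Muc5b in knockout mice lie to the right of 2-fold, Bpifa1 in mutant mice lies at -2.78, and all values would move left by 0.36 to 0.50 if each group were scaled to the same total, which turns the sign of several small ratios.

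Foxj1 (chr11:116330704-116335399, minus strand, 3 exons) was the steadiest of the 8 genes. Its lung means were 511.0, 442.0 and 401.0 under PBS and 550.0, 558.0 and 531.0 under LPS in wild type, mutant and knockout mice. The 3 LPS means were above the 3 PBS means by little, with log2 ratios of 0.11, 0.34 and 0.40. The counting interval of the wild type ratio was -0.01 to 0.22. The genes nearest to it in pattern were Chmp1a at a distance of 0.0390, Ddx20 at 0.0417, Polr2d at 0.0477 and Sdccag3 at 0.0502. Chmp1a works in membrane sorting and Polr2d is a subunit of RNA polymerase II, and none of the 4 is a cilium marker.

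Dynlrb2 (chr8:116504974-116515915, plus strand, 4 exons) encodes a light chain of the dynein motors. It was at 344.0, 399.0 and 274.0 under PBS and at 282.0, 343.0 and 303.0 under LPS. The mutant mean was the highest of the 3 genotypes under PBS and under LPS. The log2 ratio of LPS to PBS was -0.29, -0.22 and 0.14, and the counting interval of the last was -0.01 to 0.30. Less the median of genes of like length the ratios were -0.27, -0.57 and -0.74. None of these values reached 2-fold.

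Structural genes of the motile cilium lay nearer to Dynlrb2 than to Foxj1. Of 42 listed genes, all in the lung table, 41 had a mean of at least 10, and 37, 28 and 23 of these were below 0 in wild type, mutant and knockout mice. Their median log2 ratio of LPS to PBS was -0.27, -0.17 and -0.09, against -0.03, -0.03 and -0.01 over all genes. Only 1 of these cilium genes, in wild type mice, was at least 2-fold lower and none was 2-fold higher. Tppp3, a tubulin-binding protein abundant in ciliated cells, was at 2180, 1840 and 1930 under PBS and at 1170, 1640 and 1360 under LPS. Ccdc153, a coiled-coil protein of the axoneme, had log2 ratios of -0.42, -0.14 and 0.14. Dnah5, a heavy chain of the outer dynein arm, had -0.38, -0.37 and -0.31, and Cdhr3, a cadherin of ciliated cells, -0.27, -0.14 and -0.29. In knockout over wild type lung under PBS, with 2 libraries per group, 38 of 42 genes were below 0 in the authors' deposited table. Their median was -0.21, against 0.01 over all tested genes in the authors' deposited table. The share of all genes below 0 was not counted for these counts of direction. None of the 42 was called in any lung comparison.

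Regulators of ciliated cells were mixed. Of 9 listed genes 8 had a lung mean of at least 10, and their median log2 ratio was -0.10, -0.36 and -0.27. Rfx2, an X-box factor, was at 220.0, 198.0 and 203.0 under PBS and at 103.0, 95.2 and 111.0 under LPS. Rfx3, its relative, had log2 ratios of -0.45, -0.72 and -0.19. E2f4 and E2f5 act with the multiciliation program and also in the cell cycle of other cells. Their log2 ratios were 0.23, 0.39 and 0.22 for E2f4 and 0.41, 0.60 and 0.32 for E2f5. Gmnc, an early switch of multiciliated cells named after its values were seen, was at 15.0, 21.0 and 20.5 under PBS and at 2.70, 1.96 and 1.99 under LPS. Of the airway lineage factors, Cebpd was the only gene of the airway lists called in lung: its log2 fold for knockout over wild type under PBS was 1.02 in the authors' deposited table with an adjusted p of 2.58e-04, from means of 361.4 and 741.0. With LPS, the 13 lineage factors had a median log2 ratio of 0.25 in wild type, 0.54 in mutant and 0.06 in knockout mice. Of them 5, 5 and 6 were at least 2-fold higher and 0, 0 and 1 at least 2-fold lower. Cebpd had log2 ratios of 3.31, 2.63 and 2.43. Nkx2-1, the lineage factor of lung epithelium, had log2 ratios of LPS to PBS of -0.65, -0.74 and -0.91.

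Few members were past 2-fold with LPS in lung. Of 8 members 1 was higher and none lower in wild type (Reg3g), none higher and 1 lower in mutant (Bpifa1) and 2 higher and none lower in knockout mice (Muc5b and Reg3g). Over all genes with a mean of at least 10 the shares were 13.9% higher and 14.3% lower in wild type, 15.5% and 16.0% in mutant, and 16.9% and 17.7% in knockout mice. The counts of members were near these shares. The median log2 ratio was -0.10, 0.38 and 0.47 over the members and -0.03, -0.03 and -0.01 over all genes. Scaling each group to the same total shifts every log2 ratio, the median of all genes included, by -0.36, -0.50 and -0.42 in lung, so the ratios are best read against that median. After that shift the ratio of Foxj1 was below 0 in all 3 genotypes, that of Muc5b in wild type, of Scgb3a1 in mutant, of Scgb3a2 in both lines and of Dynlrb2 in knockout mice.

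Spleen has no airway lining, and most members were scarcely detected there. The 2 tissue tables were normalized separately, so a ratio of spleen to lung is approximate. Over all 15 libraries the spleen mean was 0.507% of the lung mean for Scgb3a1, 0.568% for Scgb3a2, 0.357% for Muc5b, 0.449% for Bpifa1 and 0.414% for Dynlrb2. Surfactant genes of the alveoli, which spleen cells do not make, were at like shares: 1.03% for Sftpc and 0.517% for Sftpa1. Among 4367 symbols with a lung mean of at least 500, only 62 (1.42%) had a share under 1%. The part of lung RNA carried into spleen libraries was not tested.

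Scgb1a1 had higher shares than the other 2 secretoglobins. Its spleen means were 639.0, 631.0 and 374.0 under PBS and 790.0, 1390 and 844.0 under LPS in wild type, mutant and knockout mice, or 2.24% to 4.63% of the lung mean of the same group. The lowest of these 6 shares lay above the highest share of Scgb3a1 (0.674%) and of Scgb3a2 (0.728%). They overlapped those of Foxj1, which were 0.496% to 1.13% under PBS and 2.13% to 4.41% under LPS, and that of Bpifa1 in mutant mice under LPS (2.76%). The club cell genes Aldh1a1, Cldn10 and Gsta3, named after their values were seen, had shares over all groups of 7.56%, 5.01% and 3.46%, beside 3.21% for Scgb1a1. The ratio of Scgb1a1 to Scgb3a2 was 6.92 to 10.5 in the lung groups and 36.9 to 65.3 in the spleen groups. The ratio of Scgb1a1 to Sftpc was 0.605 to 0.807 in lung and 1.82 to 2.49 in spleen. The log2 ratio of LPS to PBS in spleen was 0.31 in wild type, 1.14 in mutant and 1.17 in knockout mice. Genes under 600 exonic bases had medians of 1.03, 0.58 and 0.01 in spleen, an order of genotypes opposite to that of Scgb1a1. The smallest adjusted p of any member in spleen was 0.662 in the authors' deposited table, for Scgb1a1 in knockout over mutant under LPS, with a log2 fold of -0.62.

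**Figure D4:**
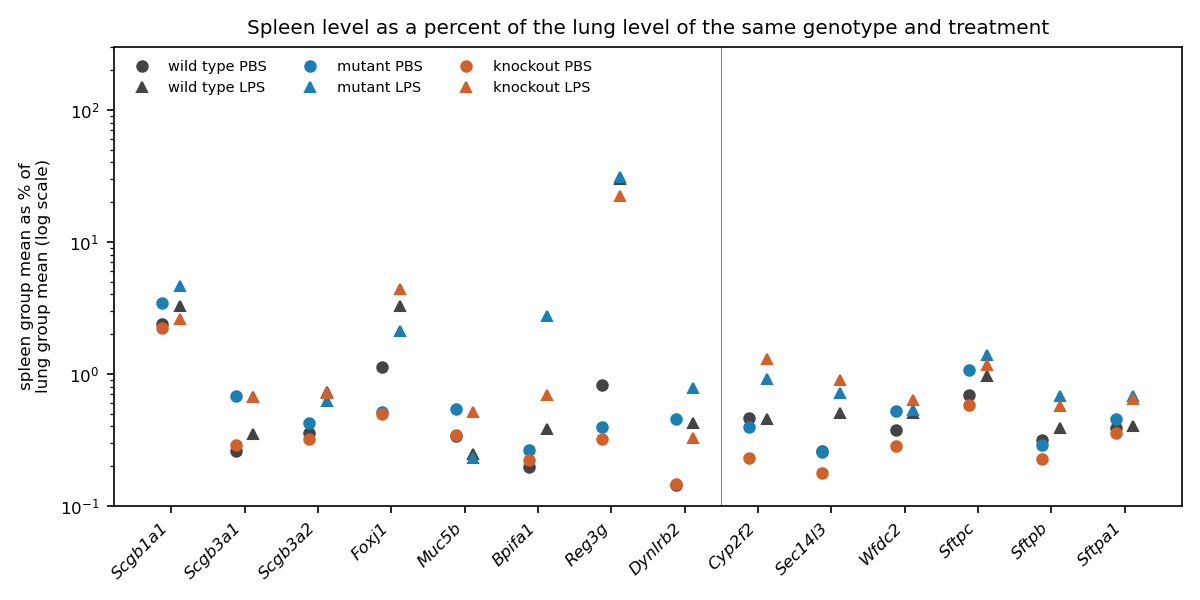
Spleen group mean as a percent of the lung group mean of the same genotype and treatment (vertical axis, log scale) for the 8 genes and, to the right of the line, 3 club cell genes and 3 surfactant genes; circles are PBS and triangles LPS. Scgb1a1 lies at 2.24% to 4.63%, above the other 2 secretoglobins and the surfactant genes in each group, and Reg3g lies at 22.3% to 31.1% under LPS only.

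Reg3g was the member that differed most in spleen. Its means were 1.55, 1.02 and 0.447 under PBS in wild type, mutant and knockout mice, which decode to 6, 2 and 1 reads over the 2 libraries of each group. Under LPS they were 165.0, 129.0 and 129.0. Every LPS group was thus far above every PBS group, and the 3 genotypes lay together. The ratio was 106.5-fold in wild type with a counting interval of 48.5 to 291.7, and 288.6-fold in knockout mice with an interval of 51.5 to 11426. In mutant mice it was 126.5-fold, from 2 reads under PBS, with no interval because the reads of the mutant LPS group could not be resolved. Against lung the spleen level was 22.3% to 31.1% under LPS and 0.319% to 0.816% under PBS.

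The other Reg genes of spleen and pancreatic transcripts were measured beside it, and the Reg genes were picked after their values were seen. Reg3b was at 2.92, 4.91 and 1.09 under PBS and at 373.0, 437.0 and 416.0 under LPS. Reg3a was at 0.215, 1.56 and 0 under PBS and at 40.9, 58.2 and 38.5 under LPS, and Reg2 at 2.43, 36.7 and 0.646 and at 314.0, 338.0 and 388.0. These genes encode secreted lectins that the acinar cells of the pancreas, the organ next to the spleen, are known to make under stress. The summed level of all 18 acinar markers in the spleen was 2584, 43239 and 6374 under PBS and 34819, 53708 and 21553 under LPS. Ctrb1 (chymotrypsinogen B) was at 166.0, 6390 and 673.0 under PBS and at 5410, 7930 and 2200 under LPS. In the mutant PBS group these markers were as high as in the LPS groups while Reg3g was at 1.02 and Reg3b at 4.91. Reg2, at 36.7 in that group, was above its level in the other PBS groups. The mucin, goblet and gland list holds the Reg genes, with Reg1, and also Ltf. In spleen it summed to 972.7, 2860 and 639.5 under PBS and to 3507, 6577 and 2817 under LPS. The part of acinar RNA in the LPS values of Reg3g was not tested.

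**Figure D5:**
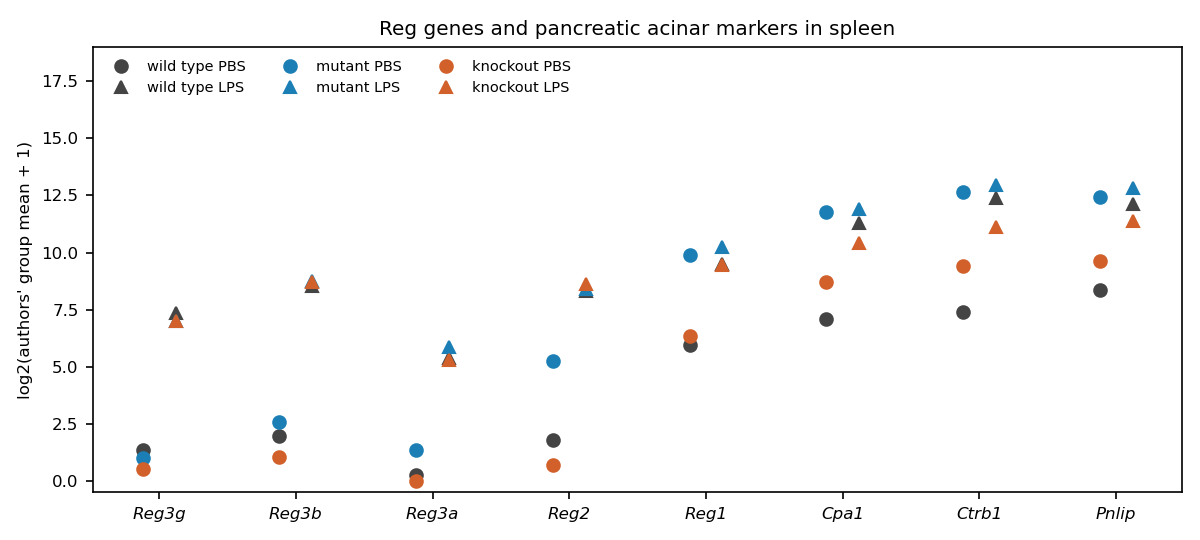
Log2 of the authors' group mean plus 1 in spleen (vertical axis) for Reg3g, 4 related Reg genes and 3 acinar markers; circles are PBS (2 libraries) and triangles LPS (3 libraries), coloured by genotype. Reg3g, Reg3b and Reg3a are low in all 3 PBS groups and higher in all 3 LPS groups, whereas Cpa1, Ctrb1 and Pnlip are already high in the mutant PBS group. Reg2 is also higher in the mutant PBS group than in the other PBS groups.

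In lung the acinar markers differed by genotype. Their sum over 17 genes was 1390, 94.8 and 121.8 under PBS and 108.0, 131.9 and 316.0 under LPS in wild type, mutant and knockout mice. It was thus lower with LPS in wild type lung and higher in mutant and knockout lung, whereas Reg3g was higher with LPS in all 3. The part of acinar RNA in the lung Reg3g values was not tested.

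Foxj1 was also higher with LPS in spleen in each genotype. Its means were 5.78, 2.28 and 1.99 under PBS and 18.0, 11.9 and 23.4 under LPS. The 3 LPS means were above the 3 PBS means, and the folds were 3.11, 5.22 and 11.8. The counting interval of the log2 ratio without a pseudocount was 0.90 to 2.42 in wild type and 2.46 to 4.89 in knockout mice. The structural cilium genes did not show such a difference together: 3 or 4 of the 39 in the spleen table had a mean of at least 10, and the sum over the 39 was 120.5, 111.9 and 124.7 under PBS and 113.0, 146.3 and 106.3 under LPS. Dynlrb2 was at 0.496, 1.80 and 0.397 under PBS and at 1.19, 2.69 and 0.993 under LPS, of which the 2 wild type means rest on 2 reads each. A difference in Dynlrb2 was not detectable at this depth.

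The remaining members were low in spleen. Scgb3a2 was at 10.9, 11.2 and 7.45 under PBS and at 21.4, 21.3 and 21.8 under LPS, so that all LPS means were above all PBS means, with log2 ratios of 0.91, 0.87 and 1.43. Bpifa1 was at 5.22, 5.69 and 3.97 under PBS and at 5.27, 8.60 and 10.3 under LPS. In spleen the mutant LPS mean of Bpifa1 was thus not the lowest, unlike in lung. Scgb3a1 lay between 1.89 and 6.68 and Muc5b between 1.74 and 6.28 in the 6 groups, with log2 ratios of LPS to PBS of -0.15, 0.32 and 1.34 and of -0.26, -0.38 and 1.41. The counting interval of the log2 ratio without a pseudocount left out 0 in knockout mice (0.44 to 3.24 and 0.51 to 3.41) and covered it in wild type mice. These intervals rest on few reads and leave out the spread between libraries, so they are no test of LPS or of genotype.

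Of the members with a spleen mean of at least 10, at least 2-fold higher with LPS were 2 of 4 in wild type, 3 of 4 in mutant and 5 of 5 in knockout mice, and none was lower. Over all genes tested in this way 13.5%, 15.3% and 16.6% were higher and 14.8%, 16.7% and 18.7% were lower. Members at these low levels could pass the minimum only through the group where they were high, so the counts are no evidence of a direction. None of the 35 member comparisons with an adjusted p in spleen was called at 0.05 in the authors' deposited table, and 13 had none. Over all spleen genes the authors' deposited table called 0.00545%, 0.0241% and 0.177% under LPS for mutant over wild type, knockout over wild type and knockout over mutant. Under PBS the shares called in the authors' deposited table were 0%, 0.160% and 0%.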

How the data were processed

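The members and the gene lists were chosen with earlier results of these data known. The submitters' processing notes list the tools DESeq2, STAR 2.5.3a, SAMtools, Bowtie2 and bedtools and the mouse build mm10; their order and settings are not given in the sources used here. Per the file headers each table of 1 tissue holds the authors' mean over 15 libraries and 6 group means, a normalized signal. It also holds the authors' log2 fold change and an adjusted p-value per comparison, read as a score of the deposited table because broken lines put other values in that column. These folds can lie nearer to 0 than the log2 ratio of the group means.

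Of 19476 lung and 18850 spleen lines, 6 and 5 with broken cells were left out, and 1026 split spleen symbols were rejoined. A repeated symbol was read at its highest overall mean. The design called for fits on single libraries if counts were found; as the tables give group means, the authors' own comparisons were read at an adjusted p under 0.05. LPS ratios used log2(mean + 1), a minimum mean of 10 in either group and a limit of 2-fold. Exonic lengths and positions came from GENCODE M21 (mm10), for 82.5% of lung and 83.5% of spleen symbols. Sizes of 1 read were taken from low means when at least 98% were whole combinations within 0.5%. Reads behind a mean are estimates from these sizes, and the 95% counting intervals (exact Poisson for a mean, binomial for a ratio) cover counting error only. Genes named beside the members were up to 4 per airway list and 2 per other list with the highest lung mean, list genes called in any comparison, and the 4 nearest patterns of Scgb1a1, Bpifa1 and Foxj1; exceptions are marked. No source used here says whether reads were counted by strand. Alternatives changed the pseudocount, the minimum mean, the fold limit, the scaling, the adjusted p and the treatment of repeated symbols. The scripts, in Python 3.11.15 with numpy 2.4.6, pandas 2.3.3 and scipy 1.17.1, were tested on simulated data.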

Additional observations from a re-analysis of the deposited data

How the results depend on the processing

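No paired analysis was possible because the tables hold group means and the library numbers are never shared between groups. Leaving out a library, DESeq2 and edgeR fits could not be run for the same reason. The counts of members called between genotypes stayed at 0 at an adjusted p of 0.1 in all 4 combinations of tissue and treatment. The counts of members past 2-fold with LPS moved by over 1.5 times as follows, and stayed within 1.5 times under the other settings tried. In lung, wild type had 3 at a limit of 1.5-fold, 0 at 4-fold and 2 with groups scaled to the same total; mutant had 4 at 1.5-fold; knockout had 1 at 4-fold and 1 at the same total. In spleen, wild type had 1 with a pseudocount of 10, at 4-fold and with a minimum mean of 50; mutant had 1 at 4-fold and 1 at the same total; knockout had 3 with a pseudocount of 10, and 2 each at 4-fold, with a minimum mean of 50 and at the same total. These settings change what is counted by construction. No ratio past 2-fold changed its sign. Taking off the median of genes of like length, chosen after seeing the data, moved 14 of the 40 single ratios that have a counting interval by more than that error; the 8 ratios of mutant spleen have no such interval. Low spleen means of single reads limit Dynlrb2, Scgb3a1 and Muc5b there.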

Other observations

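Further cell types of the lung were measured beside the airway genes. Alveolar type 1 genes had median log2 ratios of LPS to PBS of -0.52 in wild type, -0.24 in mutant and -0.90 in knockout lungs, and 4, 3 and 4 of 9 were at least 2-fold lower, beside 14.3%, 16.0% and 17.7% over all genes. Pdpn (podoplanin), named after its values were seen, went the other way, with log2 ratios of 0.55, 1.04 and 0.82. Ager, the receptor that marks these flat cells, was at 16800, 11300 and 13100 under PBS and at 12000, 15100 and 15700 under LPS. Genes of most epithelial cells, such as Cldn18 and Cdh1, had medians of -0.20, 0.66 and 0.36 over 13 genes. Mesothelial genes had medians of -1.13, -0.15 and -0.75 over 7 genes. Among neuroendocrine and tuft cell genes, Calca, the calcitonin gene, was at 9.85, 9.69 and 5.49 under PBS and at 104.7, 193.2 and 77.6 under LPS.

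Outside the airway genes of lung, 2 list genes were called in spleen. Ltf had a log2 fold of -2.52 for knockout over mutant under LPS in the authors' deposited table with an adjusted p of 0.0108, from means of 258.4 and 2232. Ifit1, an interferon-induced gene, had a log2 fold of -1.88 for knockout over wild type under PBS in the authors' deposited table with an adjusted p of 0.0295, from means of 213.0 and 940.1.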
